A study of Homo sapiens with 6 samples.

Results

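MAR-seq maps the DNA that stays bound to the nuclear matrix after soluble nuclear material is removed. In H1 human pluripotent stem cells, 3802 of the 39368 matrix regions mapped with the control hairpin shLUC were also found with the hairpin shHNRNPU and in cells without a hairpin (hPSC). These 3802 regions, 9.66% of the shLUC list, were chosen by their position alone: each shares at least 1 base with a region of the shHNRNPU list and at least 1 base with a region of the hPSC list. The 3 lists together held 115751 regions, with 36277 for shHNRNPU and 40106 for hPSC. Counted from the other lists, 3809 shHNRNPU regions (10.5%) and 3797 hPSC regions (9.47%) overlapped at least 1 of these 3802 shLUC regions. Because these overlaps selected the regions, their number is a description and was not tested.

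H1 is an established human embryonic stem cell line. The 3 groups had 2 samples each: hPSC, with no treatment given in the labels, shLUC, a hairpin named for luciferase, and shHNRNPU, a hairpin against the RNA-binding nuclear protein HNRNPU. All cells were grown in mTeSR1 medium on Matrigel. Nuclei were extracted with CSK buffer, fixed with formaldehyde and digested with the restriction enzymes MspI, HaeIII, RsaI, AluI, BamHI and PvuII. Each group was 1 cell line with at most 1 hairpin named for each target, and nothing in the labels says whether the 2 samples of a group were separate cultures. The authors deposited 1 list per group, each region 400 bp wide and without a height, so no value below has a replicate error, no difference between classes of regions could be tested, and the knockdown could not be checked. Read depth is unknown. The 95% Wilson intervals given cover counting error only, and regions along a genome are not independent replicates.

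Matrix or scaffold attachment regions are stretches of DNA that remain with the insoluble protein and RNA framework of the nucleus, and they have been described both within and between genes and at the borders of chromatin loops. HNRNPU, also called scaffold attachment factor A, binds RNA and such DNA. Promoters, the stretches around the start of a gene where RNA polymerase II assembles, are in human cells often rich in G, C and the dinucleotide CpG.

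Much of what follows turns on gene starts, so the promoters of some genes that lay under regions of all 3 lists are shown first. The sequences are the 250 bases before an annotated start, from RefSeq on build GRCh38.p14, written 5′ to 3′ on the gene's strand. Capitals mark the sites of the enzymes used for the digestion, namely CCGG for MspI, GGCC for HaeIII, GTAC for RsaI, AGCT for AluI, GGATCC for BamHI and CAGCTG for PvuII. The last contains the AluI site, and capitals run together where sites touch or overlap. RPLP0, a protein of the ribosomal stalk (chr12:120201112-120201361, minus strand), and the histone variant gene H2AZ2 (chr7:44848088-44848337, minus strand) lay under regions with the same coordinates in all 3 lists, which held 248 and 238 of the bases shown. EIF4E2, which codes for a protein that binds the mRNA cap (chr2:232550439-232550688, plus strand), lay wholly in such a region, at chr2:232550423-232550822. CTCF, the DNA-binding protein of chromatin loop borders (chr16:67562276-67562525, plus strand), and the forkhead factor gene FOXN3 (chr14:89619166-89619415, minus strand) lay wholly in a shLUC region whose hPSC partner was shifted by 238 and 46 bp. LIN28B, an RNA-binding protein that blocks the maturation of let-7 microRNAs (chr6:104940715-104940964, plus strand), and the zinc finger gene ZNF12 (chr7:6706948-6707197, minus strand) had partners shifted by 71 and 66 bp.
RPLP0: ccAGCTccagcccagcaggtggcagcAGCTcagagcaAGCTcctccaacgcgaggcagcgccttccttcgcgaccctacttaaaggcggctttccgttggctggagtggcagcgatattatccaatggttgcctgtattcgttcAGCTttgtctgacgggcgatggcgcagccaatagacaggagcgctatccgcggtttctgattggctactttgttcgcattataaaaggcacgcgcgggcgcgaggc
H2AZ2: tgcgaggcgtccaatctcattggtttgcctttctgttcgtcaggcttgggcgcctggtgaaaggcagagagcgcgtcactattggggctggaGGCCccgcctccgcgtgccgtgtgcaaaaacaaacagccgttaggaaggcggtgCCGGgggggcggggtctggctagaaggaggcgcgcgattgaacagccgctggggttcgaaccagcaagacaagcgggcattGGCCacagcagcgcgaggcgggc
EIF4E2: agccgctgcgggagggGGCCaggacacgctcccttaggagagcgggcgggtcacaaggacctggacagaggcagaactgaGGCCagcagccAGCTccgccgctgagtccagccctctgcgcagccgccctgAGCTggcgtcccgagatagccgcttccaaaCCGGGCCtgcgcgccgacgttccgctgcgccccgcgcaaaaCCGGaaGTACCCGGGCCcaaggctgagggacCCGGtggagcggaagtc
CTCF: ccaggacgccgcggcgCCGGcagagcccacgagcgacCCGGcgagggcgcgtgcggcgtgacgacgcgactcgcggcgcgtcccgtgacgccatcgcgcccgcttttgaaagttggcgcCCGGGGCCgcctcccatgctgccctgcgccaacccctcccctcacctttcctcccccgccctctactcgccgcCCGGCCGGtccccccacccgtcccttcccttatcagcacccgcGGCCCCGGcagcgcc
FOXN3: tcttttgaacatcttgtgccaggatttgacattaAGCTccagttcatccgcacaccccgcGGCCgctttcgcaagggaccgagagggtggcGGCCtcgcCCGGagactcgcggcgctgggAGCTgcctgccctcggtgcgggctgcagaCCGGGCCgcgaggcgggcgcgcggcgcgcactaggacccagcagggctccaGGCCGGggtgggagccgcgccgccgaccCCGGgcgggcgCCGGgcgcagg
LIN28B: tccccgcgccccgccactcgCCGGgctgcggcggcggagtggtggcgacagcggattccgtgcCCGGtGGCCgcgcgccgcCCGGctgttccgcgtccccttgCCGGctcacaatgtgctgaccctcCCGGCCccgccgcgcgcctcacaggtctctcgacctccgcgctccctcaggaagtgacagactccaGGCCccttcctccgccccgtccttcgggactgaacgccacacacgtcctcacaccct
ZNF12: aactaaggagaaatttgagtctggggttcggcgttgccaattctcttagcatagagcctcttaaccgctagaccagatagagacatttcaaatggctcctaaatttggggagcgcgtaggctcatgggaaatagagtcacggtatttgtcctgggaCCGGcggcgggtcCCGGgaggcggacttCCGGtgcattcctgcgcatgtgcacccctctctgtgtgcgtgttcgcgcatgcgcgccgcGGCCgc

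Promoters that no region of any list overlapped are shown for contrast, and these were picked after the values were seen. They belong to FAU, which codes for a ribosomal protein fused to a ubiquitin-like part (chr11:65122135-65122384, minus strand), to the olfactory receptor gene OR10A2 (chr11:6862807-6863056, plus strand) and to KRT10, a keratin of the skin (chr17:40822615-40822864, minus strand).
FAU: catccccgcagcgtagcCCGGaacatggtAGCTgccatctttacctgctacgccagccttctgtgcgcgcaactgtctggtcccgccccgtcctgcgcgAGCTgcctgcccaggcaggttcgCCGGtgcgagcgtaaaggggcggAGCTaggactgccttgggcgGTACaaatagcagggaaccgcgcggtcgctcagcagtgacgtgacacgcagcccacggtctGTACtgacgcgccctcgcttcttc
OR10A2: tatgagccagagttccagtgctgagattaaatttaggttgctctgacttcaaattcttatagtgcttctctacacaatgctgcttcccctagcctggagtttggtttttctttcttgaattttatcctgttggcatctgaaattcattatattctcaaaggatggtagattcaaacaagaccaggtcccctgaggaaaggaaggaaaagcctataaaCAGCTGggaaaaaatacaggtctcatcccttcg
KRT10: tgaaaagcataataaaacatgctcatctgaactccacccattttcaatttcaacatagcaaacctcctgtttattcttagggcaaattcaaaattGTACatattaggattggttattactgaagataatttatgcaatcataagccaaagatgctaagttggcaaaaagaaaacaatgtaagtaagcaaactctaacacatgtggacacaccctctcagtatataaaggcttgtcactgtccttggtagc
Among the 7 stretches shown under shared regions, G+C content ran from 57.2% in ZNF12 to 76.8% in CTCF, with 21 to 39 CpG dinucleotides each. The promoter of the splicing gene SRSF11 is not printed because only 22 of its 250 bases lay in a shared region, and it had 52% G+C and 18 CpG. FAU lay within that range, at 65.6% with 26 CpG. OR10A2 (40.4%, 1 CpG) and KRT10 (34.8%, 0 CpG) lay below it. The CTCF stretch held 6 MspI and 3 HaeIII sites, RPLP0 held 4 AluI sites and none of the others, and KRT10 held a single RsaI site.

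Regions of all 3 lists were found at gene starts far more often than the other shLUC regions. A start was taken from the promoter table, which gives one for 15843 of 20037 protein-coding genes and none on chromosome 8, so that start values rest on 37382 shLUC regions and 3626 of the shared ones. Of the latter, 1556 (42.9%, interval 41.3 to 44.5) had their centre within 1 kb of a coding start, against 7.74% (7.46 to 8.03) of the other shLUC regions and 11.2% of all shLUC regions. Regions of both hairpin lists that were not in hPSC, 24066 in all, had 7.42% at a start. The 1807 regions of shLUC and hPSC that were missing from shHNRNPU had 29.4%, and the 9693 regions of shLUC alone 4.51%. Among whole lists, hPSC also had the highest share at starts, 17.7%, with 12.6% for shHNRNPU, and the overlap with hPSC is part of how the shared regions were chosen. The share near a 3′ end of a gene was small in each class, 2.23% for shared regions and 1.54% for other shLUC regions.

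**Figure D1:**
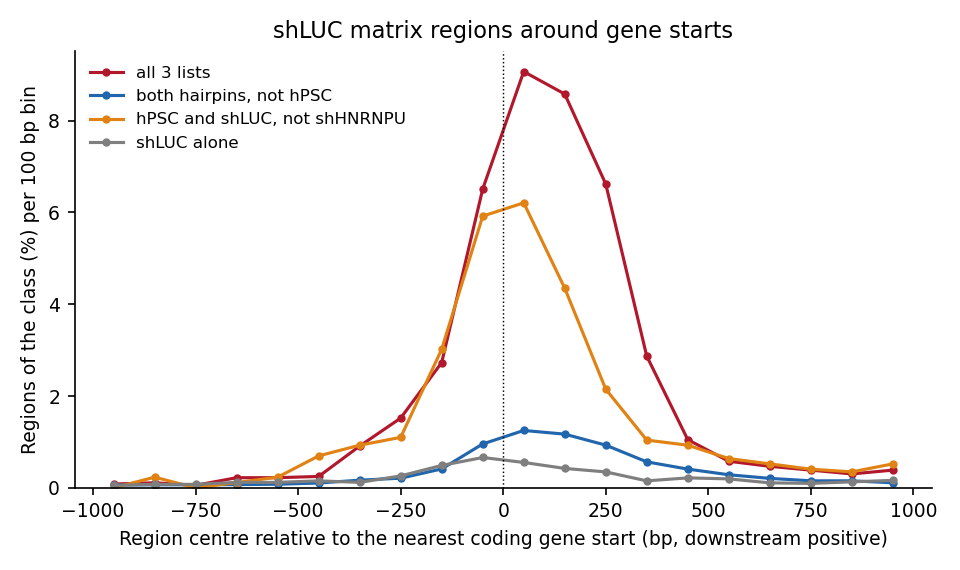
Share of the regions of each class (y axis, percent per 100 bp bin) by the position of the region centre relative to the nearest coding gene start (x axis, bp). Regions of all 3 lists peak at 9.07% in the bin from 0 to 100 bp downstream, where regions of both hairpins without hPSC reach 1.25%.

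Where regions of all 3 lists lay near a start, they were mostly on its transcribed side. Of those within 1 kb, 70.4% lay downstream, with a median centre 97 bp downstream of the start and quartiles at -26 and 224 bp. The hairpin regions without hPSC were similar, with 70.2% downstream and a median of 117 bp. The regions of shLUC and hPSC without shHNRNPU lay closer to the start, at 39.5 bp, with 58.3% downstream. Read the other way, 570 of the 1401 shLUC regions centred within 100 bp of a start (40.7%, 38.1 to 43.3) were in all 3 lists. The share was 41.8% from 100 to 200 bp, 38.2% from 200 to 500 bp and 18.8% from 500 bp to 1 kb. It was 6.95% from 1 to 5 kb, 5.92% from 5 to 50 kb and 6.39% (6.04 to 6.75) beyond 50 kb, so that it changed little once a region was over 1 kb from a start. Not all shared regions were promoter regions: 1143 of them (31.5%) lay over 50 kb from a coding start, against 49.6% of the other shLUC regions.

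**Figure D2:**
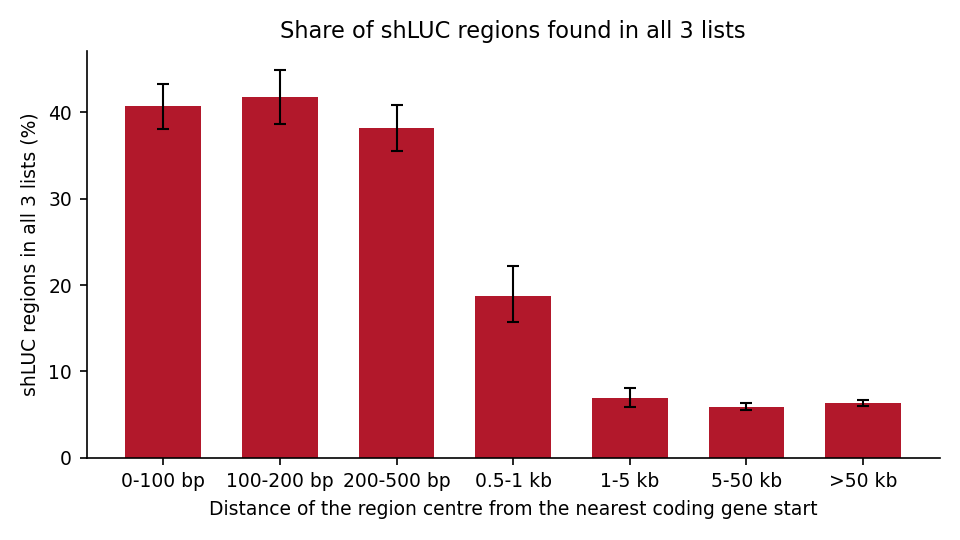
Percent of shLUC regions that were in all 3 lists (y axis) by distance of the region centre from the nearest coding gene start (x axis), with 95% Wilson intervals as error bars. The bars stand between 38.2% and 41.8% up to 500 bp and between 5.92% and 6.95% beyond 1 kb.

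The difference at gene starts was seen on each chromosome that could be counted. On the 22 chromosomes with at least 20 shared regions and known starts, the share at a start was higher in shared than in other shLUC regions on 22 of 22, with a difference of 21.8 to 43.0 percentage points. Shared regions ranged from 31.5% on chromosome 21 to 54.8% on X (42 regions), and other shLUC regions from 5.13% on chromosome 13 to 18.9% on X. The shared fraction of shLUC regions itself varied little: it was highest on Y (12.1%, 4 of 33 regions, interval 4.82 to 27.3), 6 (11%) and 3 (10.9%), and lowest on 20 (7.51%), 22 (7.94%) and 16 (8.40%). Chromosome X differed in another way, since 26 of its 42 shared regions (61.9%) had the same coordinates in all 3 lists, against 14.0% to 26.3% on the autosomes.

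**Figure D3:**
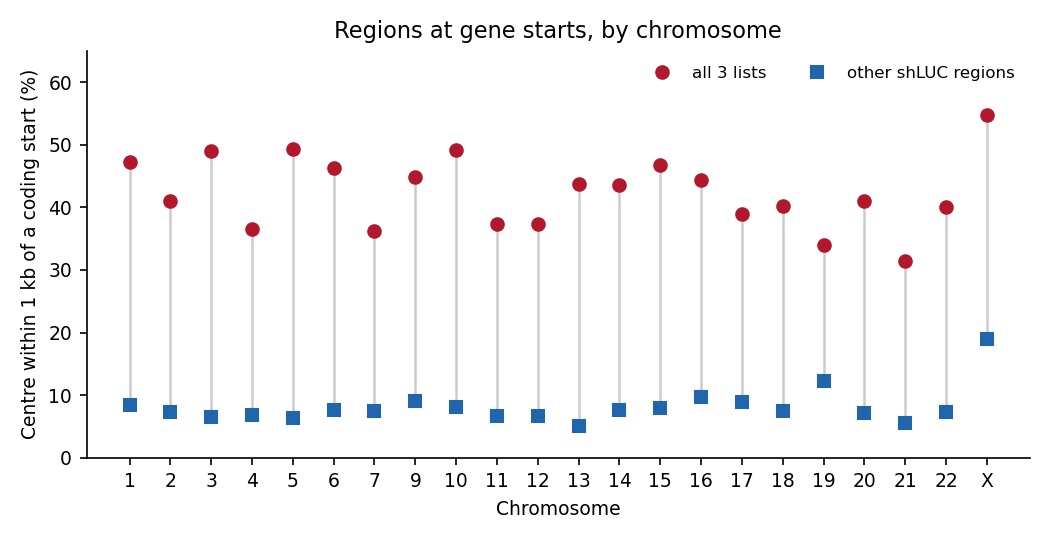
Percent of regions centred within 1 kb of a coding gene start (y axis) on each of 22 chromosomes (x axis), for regions of all 3 lists (circles) and other shLUC regions (squares); grey lines join the values of a chromosome. The circle lies above the square on all 22 chromosomes shown, by 21.8 points or more.

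Within the shared regions, the positions in the 2 hairpin lists were nearly always the same and those in hPSC were not. Of 3802 regions, 3800 had identical coordinates in shLUC and shHNRNPU, while 762 (20%) also had those coordinates in hPSC. The former held for nearly all regions that the hairpin lists had in common, since 24065 of the 24066 hairpin regions without hPSC also had identical coordinates. Whether the 2 hairpin lists were called or centred together is not given in the sources used here, so presence in both may not be a pair of separate findings. Among the regions of shLUC and hPSC that were missing from shHNRNPU, 973 of 1807 (53.8%) had identical coordinates. In the other 3040 shared regions the hPSC region was shifted by a median of 128 bp, with quartiles at 62 and 221 bp, and a median of 272 bases was shared. Regions with no shift had 32.7% at a start, against 45.1% for shifts of up to 50 bp, 46.4% for those above 50 and up to 100, 46.8% up to 200, 44.4% up to 300 and 42.8% above 300 bp. In the regions of shLUC and hPSC without shHNRNPU, those with no shift had 19.9% at a start. Shifted regions of that class had 40.4% (37.0 to 43.8), beside 45.5% (43.7 to 47.3) of all shifted shared regions. Within 100 bp of a start, shifted regions of that class had 16.4% and shifted shared regions 15.9%. The overlap rule has a sharp edge, so values on both sides of it are given. The 164 shared regions that held 1 to 50 bases of an hPSC region had 43.3% at a start, and the 87 hairpin regions that missed an hPSC region by 0 to 50 bases had 39.1%. Just inside, regions in the cell adhesion gene CADM2 (chr3:85133861-85134260) and in SLIT3, which codes for an axon guidance ligand (chr5:169300480-169300879), shared 1 base with hPSC. Just outside, a region in BTNL9, of the butyrophilin family (chr5:181052816-181053215), lay 1 base away, and one in LIMS2, a focal adhesion gene (chr2:127675035-127675434), 4 bases.

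Counted by gene rather than by region, 4290 genes (27.1% of those with a start) had a shLUC region within 1 kb of a start, 4488 (28.3%) a shHNRNPU region and 7116 (44.9%) an hPSC region. All 3 kinds were present at 2046 genes, and at 392 of these (19.2%) no single region there was in all 3 lists. A shared region lay within 1 kb of a start in 1662 genes (10.5%). These genes were long, with a median of 53087 bp, against 37405 bp where another shLUC region lay at the start and 21230 bp where none did. Another coding gene that started upstream within 1 kb on the other strand was about as frequent in the 3 sets, at 13.3%, 11% and 12.4%.

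Within gene bodies the difference was smaller. The centre lay in a protein-coding gene for 63.3% (61.7 to 64.8) of shared regions, 55% of other shLUC regions and 55.8% of all. Shared regions exceeded the others on 21 of 23 chromosomes, but once all regions within 1 kb of a coding gene boundary were left out the order turned, with 49.4% against 53.2%. Genes that do not code for protein held 10.2% of shared and 12% of other regions, and no gene held 26.6% and 33.0%. Without regions within 1 kb of a coding gene boundary the non-coding shares turned as well, to 15.8% and 12.9%. Boundaries of non-coding genes were not used to leave regions out. For the 786 shared regions over 5 kb inside a coding gene, the median host gene was 176298 bp long, beside 172402 bp for the other regions. Where the strand of the host gene was known, 8.14% of 651 shared regions lay in the first 10% of the gene, beside 6.31% of 11877 other regions. The last 10% of the gene held 6.14% and 6.95%. No interval was computed for these shares, so a lean to either end cannot be told from counting error.

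Among genes for non-coding RNA, starts of long non-coding RNAs were near 12.2% of shared and 2.73% of other regions. Many of these starts lie beside a coding start, and without such cases the shares were 3.75% (3.18 to 4.42) and 1.40% (1.28 to 1.53). A microRNA gene lay within 1 kb of 27 shared regions (0.710%) and of 0.306% of the others. Regions of shLUC and hPSC without shHNRNPU had 1.05% at microRNA genes and 3.37% (2.61 to 4.33) at lone starts of long non-coding RNAs, so neither excess was limited to the regions of all 3 lists. Few regions lay at tRNA, snRNA or snoRNA genes, with 3, 2 and 3 shared regions. Pseudogenes were near 1.84% and 1.87%, so that these 2 shares differed by less than their counting error.

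At 10 kb, shared and other shLUC regions were equally crowded. Another shLUC region lay within 10 kb of 23.2% (21.9 to 24.5) of the shared regions, of 23.2% of the others and of 23.2% of all, and the share was higher in shared regions on 12 of 23 chromosomes. The other classes were not alike. Hairpin regions without hPSC had 22.1%, regions of shLUC and hPSC without shHNRNPU 25.3% and regions of shLUC alone 25.8%. At 5 kb these classes had 4.84%, 8.63% and 8.21%, beside 6.31% of shared regions. Close pairs were an exception: within 1 kb the shares were 1.74% (66 regions, 1.37 to 2.20) and 0.540%. Regions of shLUC and hPSC without shHNRNPU had 1.16% (0.761 to 1.77), an interval that overlaps that of the shared regions. Hairpin regions without hPSC had 0.449% and regions of shLUC alone 0.650%. Close pairs were therefore not limited to the shared regions. On chromosomes with known starts, shared regions away from starts had 1.06% against 0.299% of all other shLUC regions away from starts. At starts they had 2.63% (41 regions) against 3.44%, the other order, but no interval was computed for these shares. At a wider scale, 106 shared regions had another shared region within 10 kb, and the median gap between neighbouring shared regions was 216044 bp. Of 2737 windows of 1 Mb with a shLUC region, 1860 held a shared one. Windows without a coding start had 7.38% of their shLUC regions shared, and those with 6 to 10 starts 10.7%.

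The windows with most shared regions were of different kinds. On chromosome 2, from 176000001 to 177000000, 9 of 17 shLUC regions were shared. Of these, 4 lay in or beside HOXD13, HOXD9, HOXD8 and HOXD3 and 1 in EVX2, homeobox genes that pattern limbs and the body axis, while 1 lay in LNPK and 3 were nearest to MTX2, up to 300151 bp from it. The HOXD13 region (chr2:176092788-176093187) was centred 266 bp from a coding start and the HOXD3 region (chr2:176157138-176157537) 30 bp. In all, 5 of the 9 were within 1 kb of a start. On chromosome 12, from 6000001 to 7000000, 10 of 33 were shared, 4 of them at a start. CHD4, the ATPase of the NuRD complex, ZNF384, PIANP and ENO2, the neuronal enolase, had regions centred 62 to 171 bp from a start. On chromosome 9, from 97000001 to 98000000, 10 of 27 were shared but only 1 was at a start, that of the DNA repair gene XPA, 2 bp away. The others lay in or nearest to CTSV, LOC107987025, CCDC180, TMOD1 and XPA. Windows on chromosome 2 from 130000001 (8 of 22, with PTPN18, AMER3 and ARHGEF4) and on chromosome 1 from 162000001 (8 of 24, with OLFML2B, NOS1AP, UHMK1 and UAP1) followed, each with 3 at a start.

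A shared region lay in the body or within 1 kb of 2875 of the 20037 coding genes (14.3%), of which 2670 had 1, 178 had 2, 24 had 3 and 3 had 4. The median length of genes with a shared region was 59488 bp, against 24115 bp over all coding genes. The 3 genes with 4 were ARHGEF4, a guanine nucleotide exchange factor, and the oxysterol-binding protein genes OSBP2 and OSBPL10. ARHGEF4 held 7 shLUC, 7 shHNRNPU and 9 hPSC regions. Its 4 shared regions lay at chr2:130916043-130916442, chr2:130963280-130963679, chr2:130991416-130991815 and chr2:131040003-131040402, with hPSC shifts of 116, 100, 78 and 43 bp, and the second was centred 176 bp upstream of a start. OSBP2 held 6, 6 and 5 regions in the 3 lists and OSBPL10 10, 10 and 10, and each had 1 shared region at a start and 3 far from one. The next genes by members per kb, with 3 each, were SEMA5B, a semaphorin, SLC12A8, KIF5C, a kinesin of neurons, MCF2L, CHN1, ANK1, an ankyrin, and SVIL. In MCF2L all 3 lay within 300 bp of a start (offsets of -43, 9 and 295 bp), each at a different start of the gene. In CHN1, a Rac GTPase-activating protein, 2 regions lay at the same end of the gene, one 159 bp downstream and the other 23 bp upstream of a start.

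**Figure D4:**
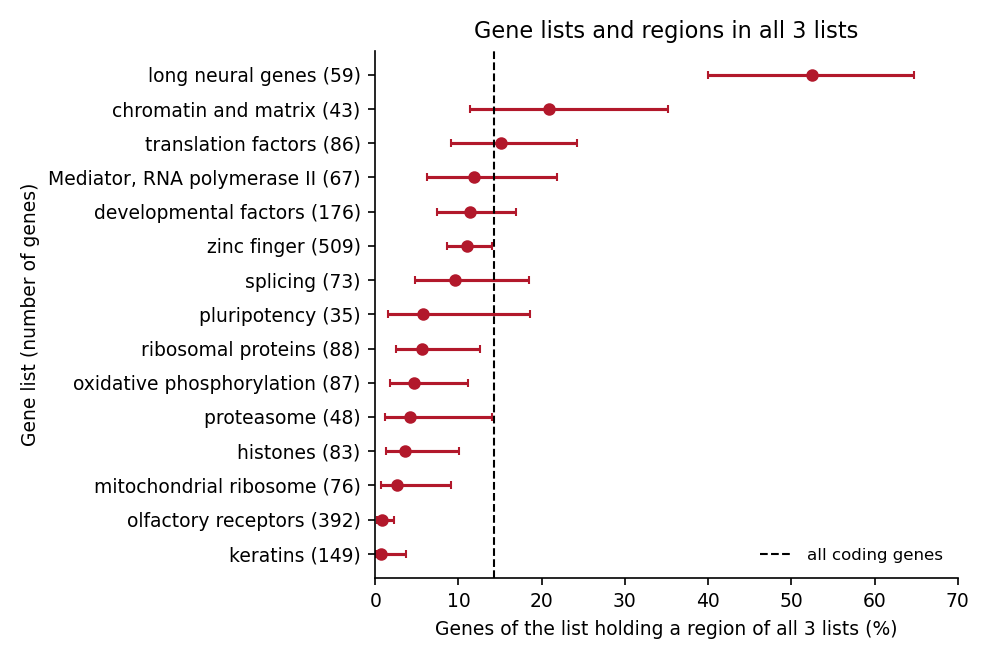
Percent of the genes of each list (y axis, number of genes in brackets) that held a region of all 3 lists in the body or within 1 kb (x axis), with 95% Wilson intervals; the dashed line is the 14.3% of all coding genes. Long neural genes lie highest at 52.5%, and keratins lowest at 0.671%.

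Lists of housekeeping genes held lower shares than coding genes at large. Among the ribosomal proteins, 5 of 88 (5.68%) held one and 3 of 70 with a known start had it there (4.29%, against 10.5% over all genes). Named by the density of regions, these included RPLP0 (chr12:120201114-120201513, 202 bp upstream) and RPS7 (chr2:3575365-3575764, 304 bp downstream). The mitochondrial ribosome had 2 of 76 (MRPL40 and MRPL43), the proteasome 2 of 48 (PSMD11 and PSMA1) and oxidative phosphorylation 4 of 87 (COX8C, NDUFB10, ATP5F1E and NDUFA8). Histones had 3 of 83 (H1-7, H3C6 and H2AZ2), with a median gene length of 508 bp. Any shLUC region was rare at these starts too, found in 10% of the ribosomal, 8.82% of the mitochondrial ribosomal and 5.26% of the histone genes against 27.1% of all. Among genes with a shLUC region at the start, 42.9%, 33.3% and 50% of these lists had a shared one, against 38.7% of all (of 7, 6, 4 and 4290 genes). Per length, the ribosomal and histone genes held 6.25 and 8.8 shared regions per Mb (from 5 and 3 regions), against 2.33 over all coding genes. The proteasome, oxidative phosphorylation and mitochondrial ribosome lists held 2.17, 2.28 and 1.28 per Mb. These lists are made of short genes, with medians up to 13551 bp, and the part of length in the counts was not tested.

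Other lists of the nuclear and protein-making machinery lay nearer to the share of all genes. Translation factors had 13 of 86 (15.1%), among them EIF5A, with a region centred 81 bp upstream of a start, and EIF4A1, 863 bp downstream. Splicing genes had 7 of 73 (9.59%), with SRSF8, HNRNPAB, PRPF38B and HNRNPUL2, a relative of HNRNPU, whose region (chr11:62727029-62727428) lay 229 bp downstream of a start. Mediator and RNA polymerase II genes had 8 of 67 (11.9%), with POLR2I, POLR2H, MED31 and TAF6L, but 4 of 67 when only the gene body was counted, where all coding genes had 2664 of 20037. Genes for chromatin structure and the nuclear matrix had 9 of 43 (20.9%, 11.4 to 35.2), and the interval holds the 14.3% of all genes. At an overlap of at least 50%, 4 of the 43 had one, against 2225 of the 20037 coding genes, so that the share of the list was then below that of all genes. In this list SUN2, of the nuclear envelope, had a region 152 bp and TMPO, a lamina protein, 703 bp downstream of a start, and the regions of CHD4 and CTCF were centred 171 and 66 bp upstream.

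Of the genes of pluripotency, 2 of 35 (5.71%, 1.58 to 18.6) held a shared region. SOX2, one of the core factors of the stem cell state, had 1 region in each list: the shLUC region at chr3:181712276-181712675 was centred 550 bp downstream of the start, and the hPSC region was shifted by 326 bp, so that 74 bases were shared. LIN28B held 6 shLUC, 7 shHNRNPU and 3 hPSC regions, and the single shared one (chr6:104940593-104940992) was centred 173 bp upstream of a start. Developmental transcription factors, which include SOX2, had 20 of 176 (11.4%), with NKX2-4, HOXD9 and HOXD8. At their starts, 51 of 116 (44.0%) had some shLUC region and 14 (12.1%) a shared one, against 27.1% and 10.5% over all genes. Of the 51 genes with a shLUC region at the start, 27.5% thus had a shared one, against 38.7% of all such genes. For pluripotency genes it was 22.2% of 9. No interval was computed for these shares. Zinc finger genes had 56 of 509 (11%), with ZNF579, ZNF669, ZNF22 and ZNF32.

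At the 2 extremes stood families of short genes used in other tissues and long neural genes. Olfactory receptors had 3 of 392 (0.765%): OR14I1, and the neighbours OR1R1 and OR3A2, which share the same region at chr17:3386294-3386693. Keratins had 1 of 149, KRT1. Few starts of these families had any shLUC region, 6 of 314 (1.91%) for olfactory receptors and 4 of 114 (3.51%) for keratins, against 27.1% of all. Long neural genes, with a median length of 1195032 bp, had 31 of 59 (52.5%, 40 to 64.7), yet per length they held 0.555 shared regions per Mb against 2.33 over all coding genes. NRG1, a growth factor of the neuregulin family, GPC6, a glypican, and GPHN, which anchors inhibitory receptors, held 3 each. The 3 in GPC6 had the same coordinates in all 3 lists and lay 1368, 228099 and 269388 bp downstream of a start. GRM7, a metabotropic glutamate receptor gene, held 2, one of them 140 bp downstream of a start. At starts, 16 of 48 long neural genes (33.3%) had a shared region, against 10.5% over all genes. Some shLUC region was at the start of 28 of the 48 (58.3%), against 27.1% over all genes. Among genes with a shLUC region at the start, 57.1% of this list had a shared one, against 38.7% of all.

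The promoters under shared regions were rich in G and C, and so were those under the other shLUC regions. Of 22078 promoter windows, each from 250 bases before to 50 bases after a start, 1428 (6.47%) were overlapped by a shared region and 183 lay wholly in one. Mean G+C was 70.5% (SD 7.34 over windows) under shared regions, 70.2% under other shLUC regions and 59.2% where no shLUC region lay. The other classes were not alike: 72.4% under hairpin regions without hPSC and 65.9% under regions of shLUC and hPSC without shHNRNPU. CpG dinucleotides numbered 32.8, 31.8 and 18.4 per window under shared, other and no shLUC regions. By G+C, each class of shLUC regions overlapped 0 of 1409 windows under 40%, which allows up to 0.272%. A shared region overlapped 5.01% of windows from 60 to 65%, 13.2% from 70 to 75% and 17.0% from 75 to 80%. At 80% and above it was 14.0% (11.7 to 16.6), where hairpin regions without hPSC reached 24.2% (21.3 to 27.4).

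**Figure D5:**
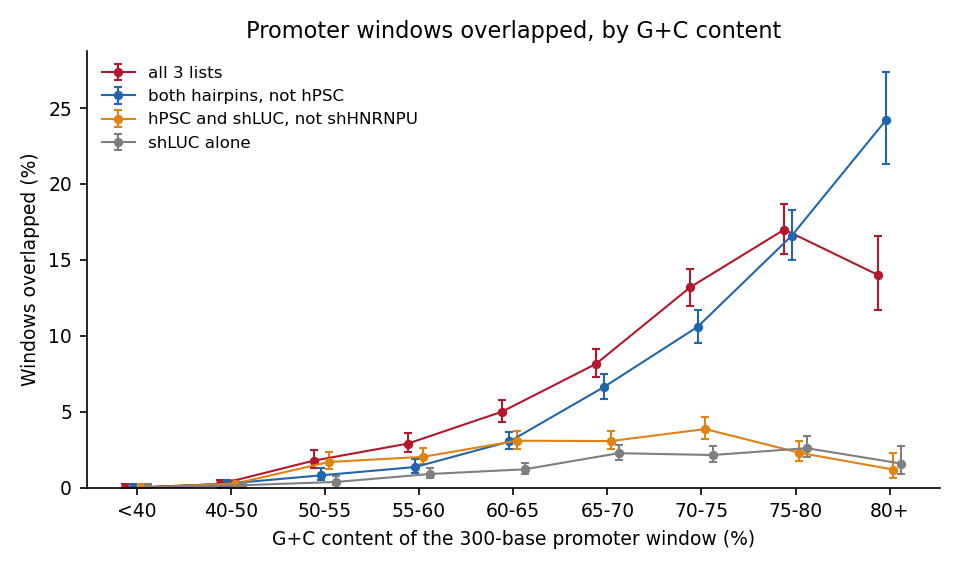
Percent of promoter windows overlapped by each class of shLUC regions (y axis) in bins of the window's G+C content (x axis, percent), with 95% Wilson intervals. Regions of all 3 lists increase to 17.0% at 75 to 80% and stand at 14.0% in the last bin, where regions of both hairpins without hPSC stand at 24.2%.

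The number of cut sites in a window moved with these shares. Sites of MspI, HaeIII, RsaI, AluI and BamHI numbered 9.35 per window under shared regions, 9.37 under other shLUC regions and 6.83 without a shLUC region, the PvuII site being counted within AluI. At equal G+C the order depended on the bin. It was kept in the lower bins, with 5.08 sites under shared regions and 4.70 without a shLUC region from 50 to 55% and 5.87 and 5.74 from 55 to 60%. These bins held only 37 and 83 windows under shared regions, and no interval was computed for the means. From 55 to 60%, windows under hairpin regions without hPSC had 5.56 sites, below the value without a shLUC region. For shared regions the order was the other way above 60%, with 6.73 and 7.03 from 60 to 65%, 9.74 sites under shared regions and 10.4 without a shLUC region from 70 to 75%, and 11.7 and 12.5 from 75 to 80%. The part of the digestion in the positions of the regions was not tested. MspI sites were in 96.9% of windows under shared regions, 94.4% under other shLUC regions and 73.9% of all windows. In the same order, HaeIII sites were in 95.7%, 94.5% and 84.3%, and RsaI sites in 21.4%, 22.7% and 27.9%. AluI sites were in 68.1%, 67.9% and 73.6%, BamHI sites in 8.12%, 7.97% and 7.21%, and PvuII sites in 15.8%, 15.8% and 18.0%.

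Sequence motifs known from promoters, chosen after the data were seen, were searched on both strands. The GC box GGGCGG was in 84.6% of windows under shared regions, 82.7% under other shLUC regions and 56.3% of all windows. The ETS core CCGGAA, which contains the MspI site, was in 24.5%, 24.9% and 21.1%. CCAAT was in 29.1%, 29.4% and 34.7%, and TATAAA in 3.78%, 3.54% and 9.50%. The other shLUC regions are a mixture: the ETS core was in 20.6% of windows under hairpin regions without hPSC and in 35.1% under regions of shLUC and hPSC without shHNRNPU, and the GC box in 87.2% and 74.3%. A match says only that the letters occur in the window.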

How the data were processed

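MAR-seq was performed in H1 cells, with 2 samples for each of hPSC, shLUC and shHNRNPU. The authors deposited 1 list of 400 bp regions per group, with positions as the only measurement used here, since per the file contents every score was 0 and every strand plus. The submitters' processing notes name cutadapt, Bowtie2, SAMtools, MACS2, deepTools and hg38 without versions or roles. Region calling, its threshold, the use of an input, the pooling of samples and the tag rp1 in the hPSC region names are not given in the sources used here. The paper linked to the series describes other assays and no methods were taken from it.

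Regions were joined by overlap of at least 1 base, and classified by the lists they were in. Gene bodies came from RefSeq (GRCh38.p14), which gives neither exons nor UTRs, and starts, strands and sequences from the RefSeq promoter table of the same build, for 23 chromosomes. A region was placed by its centre. A gene held a region that touched its body or the 1 kb on either side. The code was checked on simulated lists against a slow count. Shares have 95% Wilson intervals. No test was possible. The regions, the 15 gene lists and all comparisons were chosen with earlier results of these data known.

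The named genes were the 10 coding genes with most shared regions, up to 4 genes per list by shared regions per kb, the 3 chromosomes with the highest and the 3 with the lowest shared fraction, the 5 windows of 1 Mb with most shared regions, the regions next to the overlap threshold, and for sequences the first gene of a list in alphabetical order whose whole promoter window lay in a shared region, taking first those with the same coordinates in all 3 lists. Where a list had none, the window with most bases in a shared region was taken, which was decided after seeing the data, and that of the splicing list is not printed. Genes on chromosome 8 and others without a start in the table are left out of start values. The code ran in Python 3.11.15, with pandas 2.3.3 and numpy 2.4.6 for the tables, matplotlib 3.10.9 for the plots and scipy 1.17.1 for intervals.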

Additional observations from a re-analysis of the deposited data

How the results depend on the processing

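For 8 results, 34 alternatives were run, 11 of them added after seeing the data. Of these, 20 stayed within the counting error of the reported difference or, for counts, within 1.5 times, 12 moved further and 2 were counted as turning the direction. Changes of sign from a small reported difference were not counted as turns. For neighbours, -0.0665 points became 0.36, 0.658, 0.0723 and 1.2, all counted among the 20. For promoter G+C, 0.253 points became -1.91, counted among the 12. Identical coordinates in all 3 lists left 762 of the 3802 regions, while an overlap of at least 50% left 2895 and centres within 1 kb gave 4617. The excess of shared over other shLUC regions near either boundary of a coding gene, 36.6 percentage points within 1 kb, was 32.4 within 500 bp, 34.0 within 5 kb, 40 with all annotated genes and 34.5 at 50% overlap. Near starts it was 35.2 points, 37.7 without regions of identical coordinates and 13.5 against regions of shLUC and hPSC without shHNRNPU. That class and the shared regions differed in how many were shifted in hPSC. Among shifted regions the shares at a start were 45.5% for shared ones and 40.4% for that class. Among regions of identical coordinates they were 32.7% and 19.9%. The genic excess of 8.33 points was 14.0 with any overlap and 6.47 with all annotated genes, and it turned to -3.77 without regions near coding gene boundaries, where the difference for non-coding genes turned from -1.86 to 2.89. Mean promoter G+C differed by 0.253 points from other shLUC regions, 1.82 for windows covered whole, -1.91 against hairpin regions without hPSC and 11.3 against windows with no shLUC region. The cause was not tested. The share with a neighbour differed by -0.0665 points within 10 kb and by 1.2 points within 1 kb, where the shares were 1.74% and 0.540%.

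No paired analysis was possible because the lists hold no values per sample, and leaving out a replicate was not run for the same reason. The overlap rule compares positions only, so a region called in 1 list and just missed in another counts as absent, and depth, which sets what is missed, is unknown.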
